A study of Mus musculus with 71 samples.

Results

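The transcription factor p53 and a panel of its target genes were followed through a SLAM-seq experiment in male mouse embryonic stem cells (mESC). The 10 genes were picked by name, as Trp53, which encodes p53, and 9 targets of p53, namely Mdm2, Cdkn1a, Ccng1, Trp53inp1, Zmat3, Phlda3, Bax, Bbc3 and Sesn2. They are 10 of 21527 genes listed in the deposited tables, and all 10 were among the 12659 genes with enough reads to be tested.

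p53 is kept scarce by Mdm2, a ubiquitin ligase that marks it for destruction, and Mdm2 is itself switched on by p53, which closes a negative feedback loop. When DNA damage, nucleotide shortage or disturbed ribosome assembly frees p53 from Mdm2, p53 binds response elements near its targets and raises transcripts that arrest the cell cycle, limit metabolic and oxidative stress or start apoptosis. Because p53 is controlled mainly as a protein, its own mRNA often says little about its activity, and the target mRNAs are the usual readout. Mouse embryonic stem cells are known to contain much p53.

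In SLAM-seq, cells take up 4-thiouridine (s4U) into new RNA, and iodoacetamide makes each s4U read as a T-to-C conversion, so that the share of converted T positions falls as labelled RNA decays during a chase with plain uridine. All libraries came from 1 line of male mESC, grown in 2i/LIF and seeded in 24-well plates so as to be confluent at lysis. Labelled cells received 100 µM s4U for 24 h with a change of medium every 3 h, and either the solvent DMSO or 20 µM STM2457, an inhibitor of the m6A methyltransferase Mettl3, from 6 h before the chase until lysis. Cells were lysed after 0, 1, 1.5, 2.3, 3.5, 5.3, 8 or 12 h of chase, hence after 6 to 18 h of treatment, in 4 replicates per treatment and time (3 for STM2457 at 3.5 h). A further 4 DMSO and 4 STM2457 libraries came from cells without s4U, for which the labels give neither the hours of treatment nor the handling. The study's methods describe its replicates as independent and biological, and the labels do not name the cultures or days behind them.

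The 71 libraries held 4539726 to 7368244 reads assigned to genes (median 5726508), counted at the 3′ ends of transcripts. Levels are given below in CPM, reads scaled to a common library size after TMM normalization, and each gene was compared only with itself, since total RNA per cell was not measured and a bulk level cannot tell fewer expressing cells from less RNA per cell. The members were well covered. The median was 129 reads per library for Bbc3 (24 to 314), 406 for Trp53 (148 to 674), and between 638 for Phlda3 and 1146 for Mdm2 for the other 8. Of the reads counted on Bax, 12.1% were multimapping, so its values are the least certain in origin.

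The mESC identity was checked with 12 marker genes, of which 11 were listed. Their summed level was 3523 to 5925 CPM in DMSO and 3728 to 5507 CPM in STM2457, and Pou5f1 stood at 603 to 1103 CPM in every library. Dppa5a was the largest part of the sum, with a median of 2719 CPM. Klf4 was near the floor, with a median of 2.66 CPM and no reads in 3 libraries. The summed markers of primitive endoderm (1.21 to 14.5 CPM), trophoblast (11.9 to 58.2 CPM), early germ layers (7.99 to 95.4 CPM) and fibroblast feeders (3.89 to 24.3 CPM) were low throughout. A set of 12 libraries stood apart with fewer reads from genes whose last 250 bases are rich in G and C. They were 1 unlabelled DMSO library (replicate 4), 8 labelled DMSO libraries (1 at 0 h, 3 at 1 h, 2 at 1.5 h and 2 at 5.3 h) and 3 STM2457 libraries at 1 h, so they are not spread evenly over treatments. Within groups, Cdkn1a (r = 0.86), Trp53 (r = 0.78) and Phlda3 (r = 0.56) were lower in libraries with fewer reads from GC-rich genes. Ccng1 (r = -0.91), Sesn2 (r = -0.68) and Trp53inp1 (r = -0.59) were higher there, and the other members had r of -0.38 to -0.11. Here r relates deviations from the group means to the library's relation with GC content over all 71 libraries. Counts of called members are therefore also given without these 12 libraries, an alternative chosen after seeing the data.

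The letters through which p53 is known to reach its targets were looked up first. The members other than Trp53 were picked as known p53 targets, so matches in them are not independent of the choice and serve as a description only. The p53 consensus half-site, 10 bases that equal their own reverse complement in consensus, was searched on both strands of RefSeq promoters on GRCm38.p6, from 250 bases before to 50 bases after each annotated start. RefSeq promoters were matched for 8 of the 10 members (not Trp53inp1 or Zmat3). A half-site lay in the promoters of 5 of these 8, against 2745 of 32851 promoters (8.36%), and a complete element of 2 half-sites separated by 0 to 13 bases lay in that of Cdkn1a alone among the 8, against 24 promoters in all (0.0731%). The matches are printed 5′ to 3′ on the strand of the gene with the half-sites in capitals.
Cdkn1a, chr17:29090901-29090942, plus strand, first half-site 73 bases before the start: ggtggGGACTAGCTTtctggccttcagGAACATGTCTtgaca
Trp53, chr11:69580279-69580298, plus strand, 75 bases before the start: cggaaGGACTTGCCCttact
Mdm2, chr10:117710930-117710949, minus strand, 186 bases before the start: gatagGAACTTGCCTagcga
Ccng1, chr11:40755457-40755476, minus strand, 185 bases before the start: tgcccGGGCAAGCCTtggca
Bax, chr7:45467085-45467104, minus strand, 201 bases before the start: atcccAGGCAAGCTTtgaac

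In these windows the spacer of the Cdkn1a element measured 12 bases, and the other 4 genes held a single half-site each. Cdkn1a has another annotated start downstream, whose window (chr17:29093519-29093818) held no half-site, so its element belongs to the upstream start alone. A match is a description of the letters and not a bound site, and many p53 elements lie in introns or farther upstream than this window reaches.

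Because STM2457 blocks m6A, the members were also searched for GGACT, a common form of the m6A motif, on the transcribed strand of their longest annotated 3′ UTR (GENCODE, GRCm38). It was present in 9 of the 10 members, against 12085 of 21005 genes (57.5%), with a median density of 0.560 per kb over all genes. Trp53 held none in 565 bases and Trp53inp1 2 in 4420 bases (0.452 per kb), whereas Bax held 1 in 224 bases (4.46 per kb), Bbc3 held 4 in 971 bases (4.12 per kb), Cdkn1a 4 in 1334 bases (3.00 per kb), Sesn2 5 in 1684 bases (2.97 per kb) and Zmat3 7 in 6692 bases (1.046 per kb). The sites of Mdm2, Trp53inp1 and Phlda3 are shown with 8 bases on either side and GGACT in capitals, because the decay of these 3 transcripts is taken up below. Whether any of these sites carries m6A was not measured here.
Mdm2, chr10:117689931-117689951, minus strand, 3′ UTR: gcttggaaGGACTttggaagt
Trp53inp1, chr4:11173234-11173254, plus strand, 3′ UTR: tgtatgaaGGACTacaactag
Trp53inp1, chr4:11173776-11173796, plus strand, 3′ UTR: ttctagatGGACTtgtaaaaa
Phlda3, chr1:135768876-135768896, plus strand, 3′ UTR: cagccactGGACTcagcttgt

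First, the members were compared between cells labelled with s4U for 24 h (0 h of chase) and unlabelled cells, within each treatment. In DMSO, Mdm2, Trp53inp1, Phlda3 and Zmat3 were higher in the labelled cells, by 1.40-fold to 1.92-fold, and no member was lower. With edgeR's quasi-likelihood test at an adjusted p under 0.01, 4 of 10 members were called higher, where 0.30% of all genes tested were higher and 0.213% lower. In STM2457, Mdm2, Trp53inp1 and Phlda3 were higher, 3 of 10 members against 0.269% of all genes. The median log2 difference over the 10 members was 0.49 in DMSO and 0.43 in STM2457, beside 0.01 and 0.02 over all genes. Labelling, medium changes and, as far as the labels tell, hours of culture cannot be told apart in this comparison.

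Trp53 itself (chr11:69580359-69591873, plus strand) was among the flattest members in this comparison. Its level in DMSO was 84.6, 72.5, 109.7 and 70.3 CPM without s4U and 79.6, 85.8, 91.7 and 79.8 CPM at 0 h. In STM2457 it was 69.9, 102.8, 74.1 and 76.1 CPM without s4U and 82.6, 64.6, 83.1 and 89.4 CPM at 0 h. The labelled and unlabelled libraries overlapped in both treatments, and the log2 differences were -0.00 ± 0.21 (SE, edgeR adjusted p = 0.998) and -0.02 ± 0.21 (adjusted p = 0.991).

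Mdm2 (chr10:117688875-117710758, minus strand), the feedback inhibitor of p53, had the smallest p-value of all 12659 genes in DMSO. Without s4U its level was 156.5, 207.6, 152.2 and 161.4 CPM in DMSO, and after labelling it was 304.4, 324.4, 337.2 and 333.5 CPM. All labelled libraries lay far above all unlabelled ones, and within each group the values were close together except for the second unlabelled library. In STM2457 the levels were 133.8, 176.6, 171.7 and 154.6 CPM without s4U and 195.1, 271.0, 250.5 and 266.8 CPM with it. Again the groups did not overlap, but the labelled STM2457 libraries were all below the labelled DMSO ones. The log2 difference between labelled and unlabelled cells was 0.94 ± 0.10 (SE) in DMSO, or 1.92-fold (edgeR adjusted p = 3.0e-09), and 0.63 ± 0.10 in STM2457, or 1.54-fold (adjusted p = 9.2e-05).

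The cell-cycle genes Cdkn1a (chr17:29090976-29100727, plus strand), which encodes the cyclin-dependent kinase inhibitor p21, and Ccng1 (chr11:40748552-40755311, minus strand), which encodes cyclin G1, a partner of protein phosphatase 2A that acts back on Mdm2, varied more between libraries. Cdkn1a stood at 257.9, 221.4, 252.7 and 202.6 CPM in unlabelled DMSO cells and at 255.4, 352.5, 384.4 and 296.2 CPM after labelling. Of the labelled values, only that of replicate 1, one of the 12 libraries that stood apart, fell inside the unlabelled range. The log2 difference was 0.46 ± 0.19 (SE, edgeR adjusted p = 0.271), and without the 12 libraries it was 0.49 with an adjusted p of 0.00797. In STM2457 the difference of Cdkn1a was 0.13 ± 0.19 (adjusted p = 0.848). For Ccng1 the log2 differences were 0.41 ± 0.15 in DMSO (adjusted p = 0.213) and 0.53 ± 0.15 in STM2457 (adjusted p = 0.0670), and the 4 labelled STM2457 libraries, at 169.0 to 193.9 CPM, were all above the 4 unlabelled ones, at 105.4 to 149.1 CPM.

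Trp53inp1 (chr4:11156431-11174379, plus strand), which encodes a stress-induced partner of p53 in apoptosis and autophagy, rose in both treatments. Its level without s4U was 116.8, 128.3, 108.3 and 107.9 CPM in DMSO and 91.6, 93.7, 87.9 and 91.6 CPM in STM2457. After labelling it was 199.4, 207.4, 181.5 and 187.2 CPM in DMSO and 170.6, 176.2, 192.4 and 166.6 CPM in STM2457. The groups were widely separated, with a gap between highest unlabelled and lowest labelled library larger than the spread within any group. The log2 differences were 0.75 ± 0.11 (SE, edgeR adjusted p = 4.3e-06, rank 7 of 12659 by p) in DMSO and 0.95 ± 0.11 (adjusted p = 1.7e-08, rank 1) in STM2457. The calls of Mdm2 and Trp53inp1 were kept in both treatments under each of 15 alternative settings, with adjusted p-values of up to 0.00599.

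Phlda3 (chr1:135766119-135769136, plus strand), whose product competes with the kinase Akt for membrane lipids, stood at 76.3, 82.2, 71.3 and 70.9 CPM in unlabelled DMSO cells and at 109.2, 132.1, 142.6 and 122.0 CPM after labelling. In STM2457 it went from 66.4, 70.02, 74.4 and 79.9 CPM to 118.1, 107.2, 153.8 and 131.0 CPM. The labelled and unlabelled libraries did not overlap in either treatment, although the labelled ones were more spread. The log2 differences were 0.75 ± 0.15 in DMSO (edgeR adjusted p = 0.00194) and 0.81 ± 0.15 in STM2457 (adjusted p = 5.4e-04). Each call was lost on leaving out labelled replicate 3 of its treatment, at 0.68 (adjusted p = 0.0108) and 0.69 (adjusted p = 0.0128).

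Zmat3 (chr3:32334792-32366014, minus strand), which encodes an RNA-binding zinc finger protein, was 139.3, 174.3, 160.6 and 151.3 CPM without s4U and 207.7, 226.3, 201.1 and 241.7 CPM with it in DMSO. These groups did not overlap, and the log2 difference was 0.49 ± 0.10 (SE, edgeR adjusted p = 0.00223). The call was lost without unlabelled replicate 1 or 4 or labelled replicate 2 or 4, with differences of 0.43 to 0.47 and adjusted p-values of 0.0133 to 0.0331. It was also lost with only the libraries of the contrast (0.49, adjusted p = 0.0794) and with no filter on low counts (0.48, adjusted p = 0.0136). In STM2457 the difference of Zmat3 was 0.32 ± 0.10 (adjusted p = 0.0889). Sesn2 (chr4:132492032-132510501, minus strand), which encodes sestrin 2, an inhibitor of mTORC1 under stress, differed by 0.49 ± 0.18 in DMSO (adjusted p = 0.202) and by 0.34 ± 0.18 in STM2457 (adjusted p = 0.435). Without the 12 libraries that stood apart, its difference in DMSO was 0.61 (adjusted p = 2.4e-04).

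The apoptosis genes parted. Bbc3 (chr7:16308393-16318205, plus strand), which encodes the BH3-only protein Puma, was at 16.02, 18.7, 18.1 and 15.6 CPM without s4U and at 34.5, 21.3, 34.5 and 43.5 CPM with it in DMSO. All labelled values lay above all unlabelled ones, but they ranged widely, and the log2 difference of 0.97 ± 0.25 (SE) missed the threshold (edgeR adjusted p = 0.0277). In STM2457 Bbc3 was at 4.92, 15.7, 17.2 and 16.04 CPM without s4U and at 22.02, 16.8, 32.8 and 19.3 CPM with it, a difference of 0.74 ± 0.26 (adjusted p = 0.138), which was 0.47 (adjusted p = 0.561) without the unlabelled library at 4.92 CPM. Bax (chr7:45461697-45466898, minus strand), the pore-forming effector of the mitochondrial pathway, differed by -0.13 ± 0.13 in DMSO (adjusted p = 0.810) and by -0.19 ± 0.13 in STM2457 (adjusted p = 0.603).

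The 4 labelled libraries at 0 h lay above all 4 unlabelled ones for 5 members in DMSO (Mdm2, Trp53inp1, Zmat3, Phlda3 and Bbc3), where 3.40% of all genes tested did so, and for 5 in STM2457 (Mdm2, Ccng1, Trp53inp1, Zmat3 and Phlda3), where 3.79% did. Over all chase times, the labelled libraries that exceeded every unlabelled library were counted, where the median over all genes tested was 6 in each treatment. In DMSO these were 32 of 32 for Phlda3 and for Bbc3 (0.174% of all genes reached as many), 30 for Trp53inp1 (0.521%), 23 for Mdm2 (5.14%), 18 for Zmat3 (13.4%), 17 for Sesn2, 12 for Cdkn1a, 10 for Ccng1, and 1 for Trp53 and for Bax. In STM2457 they were 31 of 31 for Trp53inp1 (0.126%), 29 for Phlda3 (0.664%), 22 for Bbc3 (5.93%), 20 for Mdm2 (8.56%), 16 for Sesn2, 13 for Zmat3 and for Ccng1 (23.4%), 5 for Cdkn1a, and 0 for Trp53 and for Bax. Zmat3, although called at 0 h in DMSO, had a mean of 158 CPM at 12 h beside 156 CPM without s4U.

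The difference between treatments in the effect of labelling was tested directly. edgeR called 0 of 10 members and 0 of 12659 genes (0%), with 1 member and 487 genes at an unadjusted p under 0.05, and DESeq2 called 0 members. The member was Mdm2, whose log2 difference was 0.31 smaller in STM2457 than in DMSO (-0.31 ± 0.15, SE, edgeR adjusted p = 1.00). Removing the 12 libraries that stood apart raised the members called higher to 6 in DMSO, by adding Cdkn1a and Sesn2. In STM2457 it raised them to 4, by adding Ccng1 at a log2 difference of 0.51 (edgeR adjusted p = 2.0e-04). None of the 12 was among the STM2457 libraries compared here. For Ccng1 the libraries compared thus stayed the same, and the spread estimated over all groups differed.

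**Figure D1:**
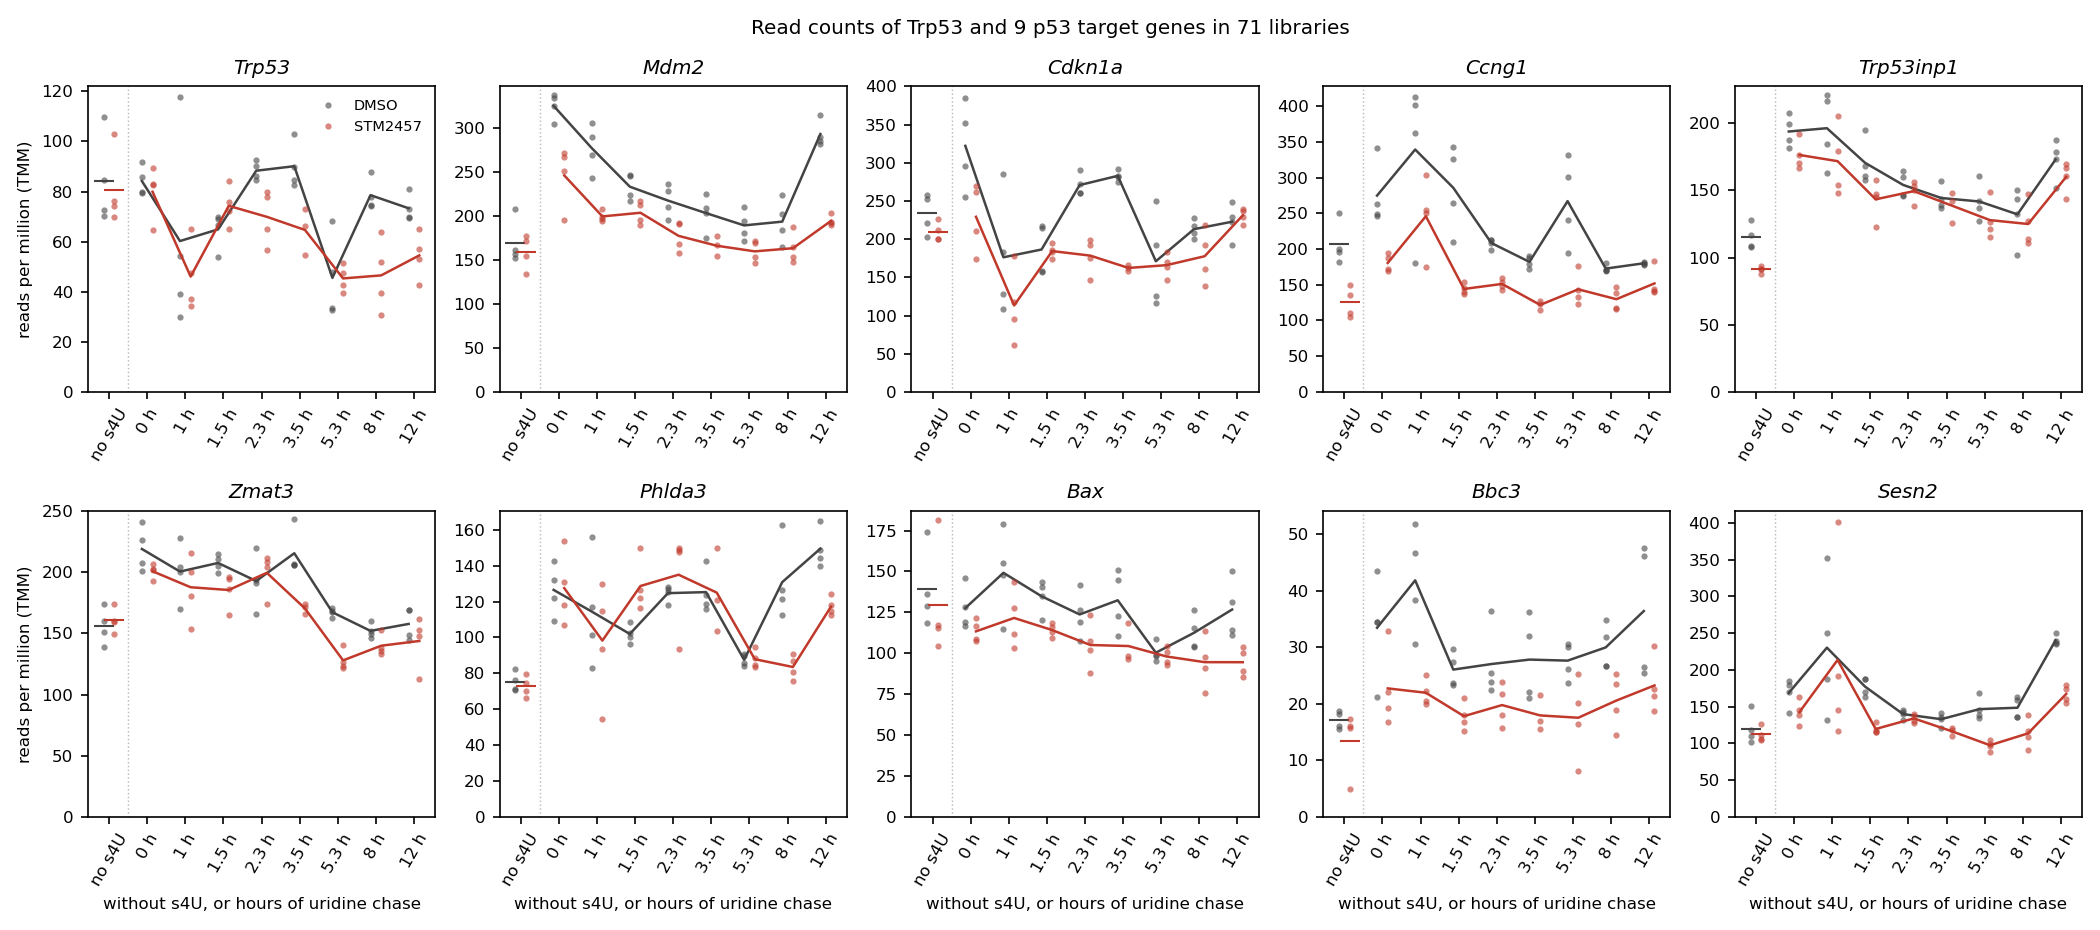
Level of each of the 10 genes in every library, in TMM-scaled CPM on a linear axis, against condition (no s4U, then hours of chase), with 1 point per library, lines through group means, and DMSO and STM2457 in separate colours. In DMSO the points without s4U lie below all 32 labelled ones for Phlda3 and Bbc3 and below 30 for Trp53inp1, and those of Mdm2, with a mean of 169 CPM, lie below the 0 h points, with a mean of 325 CPM, but not below all later ones.

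Next, STM2457 was compared with DMSO. Averaged over the 8 chase times, 9 of 10 members were lower in STM2457, with changes of -8.48% for Trp53inp1 to -34.99% for Bbc3, and Phlda3 was not called. In this comparison 12.6% of all genes tested were lower and 13.9% higher. The median log2 difference over the 10 members was -0.31, beside -0.01 over all genes. In cells without s4U only Ccng1 was called lower (1 of 10 members, against 0.845% of all genes). Without the 12 libraries that stood apart, 8 members were called in the average.

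Ccng1 was the member with the most separated levels. Without s4U it was 182.5, 200.1, 196.2 and 250.7 CPM in DMSO and 110.7, 105.4, 136.3 and 149.1 CPM in STM2457. At 0 h of chase it was 341.0, 262.5, 246.8 and 248.7 CPM in DMSO and 193.9, 187.6, 169.0 and 171.4 CPM in STM2457. The treatments did not overlap in either condition, and the value of 341.0 CPM came from a library among the 12 that stood apart. The log2 difference was -0.72 ± 0.15 without s4U (SE, edgeR adjusted p = 0.00143) and -0.58 ± 0.06 averaged over the chase (adjusted p = 4.0e-14). Without s4U the call was lost on leaving out DMSO replicate 4 (-0.63, adjusted p = 0.0184) or STM2457 replicate 1 (-0.69, adjusted p = 0.0116) or 2 (-0.66, adjusted p = 0.0146). At 12 h the gap was smaller, with 181.1, 177.7, 182.0 and 179.3 CPM in DMSO and 183.8, 140.6, 143.9 and 139.2 CPM in STM2457. There the first STM2457 library exceeded every DMSO library, and the difference was -0.25 ± 0.15 (adjusted p = 0.370).

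Mdm2 was lower in STM2457 at all 8 chase times. Group means in DMSO ran 325, 277, 233, 217, 203, 189, 193 and 293 CPM from 0 to 12 h. Those in STM2457 ran 246, 199, 203, 177, 166, 160 and 163 CPM to 8 h and 194 CPM at 12 h. Both courses were lowest at 5.3 h and had a higher mean at 12 h than at 8 h, and the libraries of the treatments did not overlap at 0, 1, 2.3, 5.3 and 12 h. At 12 h the DMSO libraries read 285.5, 281.9, 289.6 and 314.4 CPM and the STM2457 libraries 192.4, 203.1, 191.5 and 189.8 CPM. The log2 difference was -0.59 ± 0.10 at 12 h (edgeR adjusted p = 1.8e-05), -0.34 ± 0.04 averaged over the chase (adjusted p = 4.5e-12) and -0.09 ± 0.10 without s4U (adjusted p = 0.689). At 12 h Mdm2 was the 1 member called lower, against 1.56% of all genes.

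At 0 h no member passed the threshold with edgeR, while 1.68% of all genes tested did in either direction. The smallest adjusted p-values were those of Ccng1 (-0.61 ± 0.15, adjusted p = 0.0105) and Mdm2 (-0.40 ± 0.10, adjusted p = 0.0112), 4 members had an unadjusted p under 0.05, all lower, where 16.1% of all genes had, and DESeq2 called 2 members and 312 genes in all. Without the 12 libraries 3 members were called lower at 0 h, namely Ccng1 (-0.50, adjusted p = 6.4e-04), Mdm2 (-0.45, adjusted p = 0.00323) and Cdkn1a (-0.60, adjusted p = 3.9e-05).

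Cdkn1a differed by -0.35 ± 0.07 (SE, edgeR adjusted p = 2.5e-05) over the chase, and by -0.22 (adjusted p = 0.00756) without replicate 1 of every labelled group. Its STM2457 libraries at 0 h, at 210.6, 174.2, 270.0 and 262.1 CPM, reached into the range of the DMSO ones given above, and at 12 h the means were 223 CPM in DMSO and 231 CPM in STM2457. The lowest group means of Cdkn1a in both treatments, 113 ± 48.9 CPM (SD, n = 4) in STM2457 at 1 h, and 171 ± 62.3 CPM in DMSO at 5.3 h, were in groups that held 3 and 2 of the libraries that stood apart.

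Trp53 was lower by 0.28 ± 0.08 on the log2 scale over the chase (edgeR adjusted p = 0.00222), with a lower mean at 7 of 8 times. This call was lost without replicate 1 of every labelled group (-0.14, adjusted p = 0.105). At 12 h its level was 73.1, 69.7, 69.4 and 81.1 CPM in DMSO and 42.8, 65.1, 53.2 and 56.9 CPM in STM2457. The groups did not overlap there, with a log2 difference of -0.43 ± 0.22 (adjusted p = 0.229), and without s4U the difference was -0.06 ± 0.21 (adjusted p = 0.912).

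Among the stress genes, Sesn2 differed by -0.33 ± 0.06 (edgeR adjusted p = 2.4e-05), Zmat3 by -0.16 ± 0.04 (adjusted p = 1.2e-04) and Trp53inp1 by -0.13 ± 0.04 (adjusted p = 0.00627) over the chase. The call of Trp53inp1 was lost without replicate 2, 3 or 4 of every labelled group, at -0.14, -0.12 and -0.10, and without the 12 libraries (-0.10, adjusted p = 0.0599). Sesn2 at 12 h was 238.7, 235.6, 236.7 and 250.04 CPM in DMSO and 173.7, 179.5, 154.9 and 161.0 CPM in STM2457. These groups lay far apart, yet the difference of -0.52 ± 0.18 missed the threshold (adjusted p = 0.0511), and without the 12 libraries it passed (-0.50, adjusted p = 3.8e-05). None of the 12 was at 12 h, so the libraries compared stayed the same and the spread estimated over all groups differed. The SD of Sesn2 at 1 h was 94.5 CPM in DMSO and 129 CPM in STM2457. Phlda3 averaged -0.09 ± 0.05 (adjusted p = 0.164), with a lower mean in STM2457 at 4 of 8 times. Its libraries at 12 h were 140.0, 165.1, 144.1 and 148.8 CPM in DMSO and 117.9, 124.0, 112.3 and 114.6 CPM in STM2457, all lower in STM2457. At 1.5 h all its STM2457 libraries were higher, as they were for 11.5% of all genes tested. Of the DMSO libraries at 1.5 h, 2 were among the 12 that stood apart.

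Both apoptosis genes were lower in STM2457 at all 8 chase times. Bbc3 had the largest averaged difference of the members, -0.62 ± 0.09 (SE, edgeR adjusted p = 3.0e-08), with group means of 26.05 to 41.9 CPM in DMSO and 17.5 to 23.2 CPM in STM2457. Without s4U it differed by -0.33 ± 0.26 (adjusted p = 0.511), and by -0.08 (adjusted p = 0.915) without STM2457 replicate 1, the library at 4.92 CPM. Bax differed by -0.25 ± 0.05 over the chase (adjusted p = 1.9e-05). Its libraries at 12 h were 111.4, 131.1, 114.2 and 150.2 CPM in DMSO and 85.5, 100.0, 88.9 and 103.6 CPM in STM2457, without overlap, at a difference of -0.42 ± 0.13 (adjusted p = 0.0294).

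At 12 h all 4 STM2457 libraries lay below all 4 DMSO libraries for 5 members (Trp53, Mdm2, Phlda3, Bax and Sesn2), where 8.70% of all genes did so. Without s4U this held for 2 members, Ccng1 and Trp53inp1, against 4.69% of all genes. Trp53inp1 without s4U differed by -0.34 ± 0.11 (edgeR adjusted p = 0.0498).

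**Figure D2:**
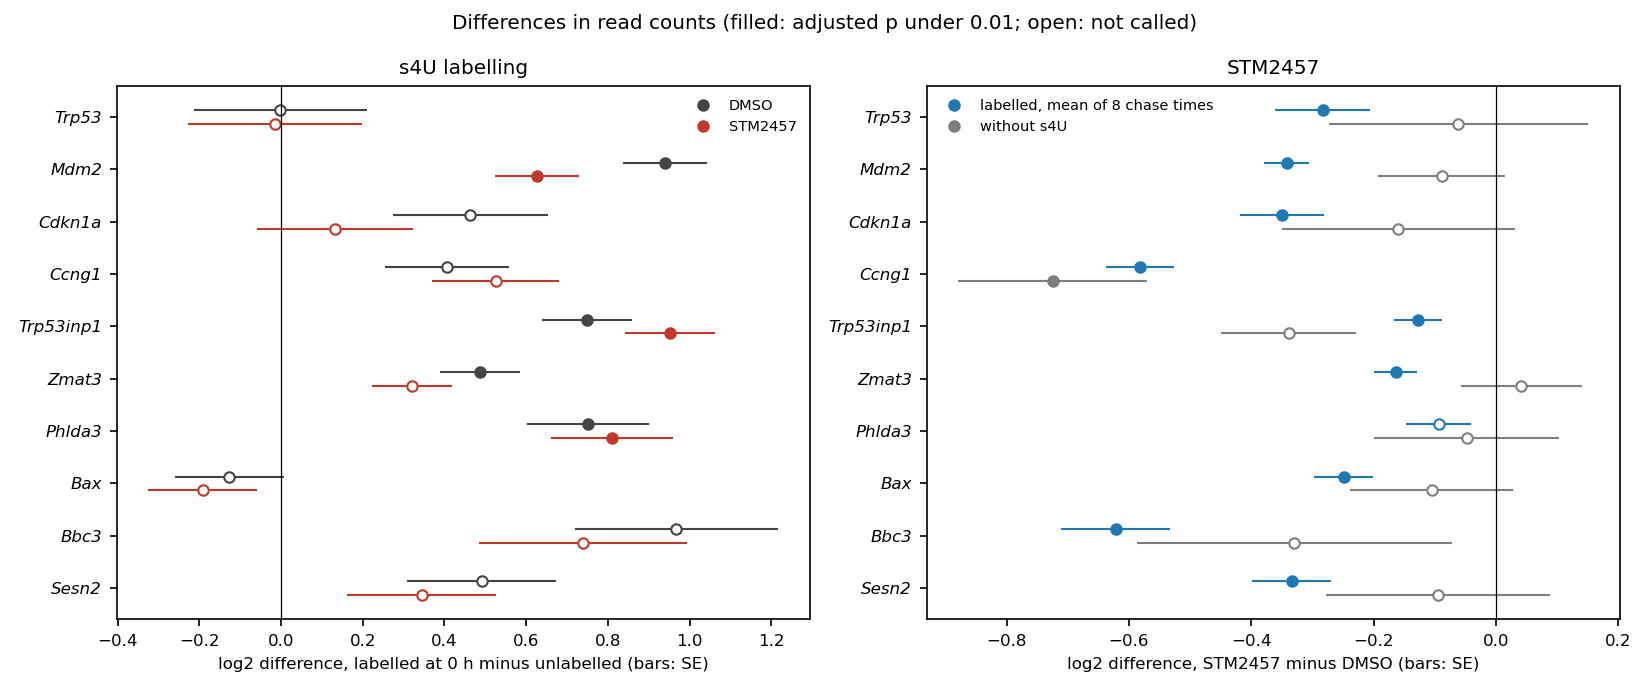
Log2 differences of the 10 genes from edgeR, with bars of 1 SE and filled symbols where the adjusted p was under 0.01. The left panel gives labelled cells at 0 h minus unlabelled cells in each treatment, where Mdm2, Trp53inp1 and Phlda3 are filled in both, and the right panel gives STM2457 minus DMSO over 8 chase times and without s4U, where 9 and 1 of the 10 genes are filled, all below 0.

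The course over the chase was compared as 12 h minus 0 h in each treatment. Zmat3 fell in both, by 0.47 ± 0.10 on the log2 scale in DMSO (edgeR adjusted p = 1.9e-04) and by 0.48 ± 0.10 in STM2457 (adjusted p = 4.4e-04), where the call was lost without STM2457 replicate 4 at 12 h (-0.38, adjusted p = 0.0109). Ccng1 fell in DMSO by 0.61 ± 0.15 (adjusted p = 0.00208), and this call was lost without DMSO replicate 1 at 0 h, one of the 12 libraries that stood apart (-0.51, adjusted p = 0.0247), and with the GC slope of each library as a covariate (-0.21, adjusted p = 0.111). Thus 2 of 10 members were called lower in DMSO, against 8.20% of all genes tested, and 1 of 10 in STM2457, against 3.03%. Cdkn1a (-0.53 ± 0.19, adjusted p = 0.0339) and Sesn2 (0.51 ± 0.18, adjusted p = 0.0317) missed the threshold in DMSO. In the difference between treatments in this course edgeR called 0 members, where 1.11% of all genes tested were called in either direction. DESeq2 called 0 members too, and 1 had an unadjusted p under 0.05, Cdkn1a (0.54 ± 0.27, edgeR adjusted p = 0.343), which was called without the 12 libraries (0.68, adjusted p = 0.00123). Medium, density and treatment time all advance with the chase and cannot be told apart from it. Of the 11 listed mESC markers, 7 were lower at 12 h than at 0 h in DMSO and 3 in STM2457, and their part in the members' course was not tested.

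Then, decay was read from the conversion rate, which is the share of covered T positions read as C. A half-life was fitted for each transcript and treatment to the rates after subtraction of the unlabelled rate and division by the rate at 0 h. Of the 10 members 9 passed the limits on coverage and fit. Bax did not, with a residual standard error of 0.425 in DMSO, so no half-life is given for it. At 5.3 h the rates of the 9 lay below the fitted curves in both treatments. For Phlda3 in STM2457 the rate was 0.0888 against 0.358 fitted there, and 1.03 against 0.640 at 2.3 h. The mean rate of whole libraries fell from 1.01% at 3.5 h to 0.534% at 5.3 h in DMSO, and from 0.927% to 0.526% in STM2457. The reason for this step was not tested. The 9 members had a median of 2.52 h (DMSO) and 2.93 h (STM2457), beside 3.19 h and 3.45 h over the 7408 transcripts that passed. Below those medians lay 6 and 7 of the 9, while Zmat3, Ccng1 and Trp53 lay above in DMSO. With so few members, these counts are not read as a trait of the panel. Sesn2, which lay below both medians, had a mean unlabelled rate of 0.283% in DMSO and 0.321% in STM2457. Without background subtraction its half-lives were 4.12 h (DMSO) and 4.34 h (STM2457), above the medians of 3.51 h and 3.83 h in that setting.

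In DMSO the fitted half-lives, in ascending order, were 1.52 h for Bbc3, 1.63 h for Cdkn1a, 1.71 h for Mdm2, 2.36 h for Phlda3, 2.52 h for Trp53inp1, 2.65 h for Sesn2, 3.35 h for Zmat3, 3.42 h for Ccng1 and 4.38 h for Trp53. The shortest 3 lay closer together than the SD between replicate series given below for Mdm2. They stood at percentiles 6.12, 7.91 and 9.21 of all transcripts, so that the mRNAs of Puma, p21 and the p53 inhibitor Mdm2 were among the less stable ones here, while Trp53 stood at percentile 75.8.

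In STM2457 the fitted half-lives were 2.20 h for Bbc3, 1.67 h for Cdkn1a, 2.43 h for Mdm2, 3.58 h for Phlda3, 2.97 h for Trp53inp1, 2.60 h for Sesn2, 2.93 h for Zmat3, 3.32 h for Ccng1 and 3.51 h for Trp53. The fitted value was longer in STM2457 for 5 of the 9, and over all transcripts for 56.7%. Over all transcripts the median log2 ratio of STM2457 to DMSO was 0.07. The largest ratios of members were 0.60 for Phlda3, 0.53 for Bbc3 and 0.51 for Mdm2 on the log2 scale.

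For an error on these values, libraries with the same replicate number were joined into 4 series per treatment and fitted separately. Libraries of a series share only that number, and all series of a treatment used the same unlabelled rate. For Mdm2 the series gave 1.99, 1.17, 1.94 and 1.94 h in DMSO and 2.17, 2.93, 2.15 and 2.49 h in STM2457. The series did not overlap, at means of 1.76 ± 0.391 h and 2.43 ± 0.368 h (SD, n = 4), with a two-sided exact permutation p of 0.0286, the smallest that 4 against 4 can give. The share of all transcripts whose series do not overlap was not counted, so this is not read as particular to Mdm2. The log2 difference of 0.49 fell to 0.21 without series 2 of both treatments. Adjusted over the 5772 transcripts that gave a value in each series, the limma p of Mdm2 was 0.751. Cdkn1a was nearly equal, at 1.64 ± 0.236 h and 1.67 ± 0.130 h (exact permutation p = 0.857). The series of Trp53inp1 overlapped, at 2.57 ± 0.402 h in DMSO and 2.98 ± 0.713 h in STM2457 (exact permutation p = 0.4). Those of Bbc3 overlapped too, at 1.65 ± 0.627 h in DMSO and 2.15 ± 0.296 h in STM2457 (exact permutation p = 0.257). For Phlda3 the series gave 2.85, 2.44, 2.28 and 1.98 h in DMSO and 3.15, 4.54, 3.82 and 2.67 h in STM2457, overlapping by a single series (exact permutation p = 0.0571). The series of Trp53 were scattered, at 7.37, 1.78, 5.32 and 6.38 h in DMSO and 3.98, 3.47, 3.27 and 3.17 h in STM2457 (exact permutation p = 0.429). With limma 0 of 9 members and 0 of 5772 transcripts were called at an adjusted p under 0.05 (0%), with 405 transcripts at an unadjusted p under 0.05.

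**Figure D3:**
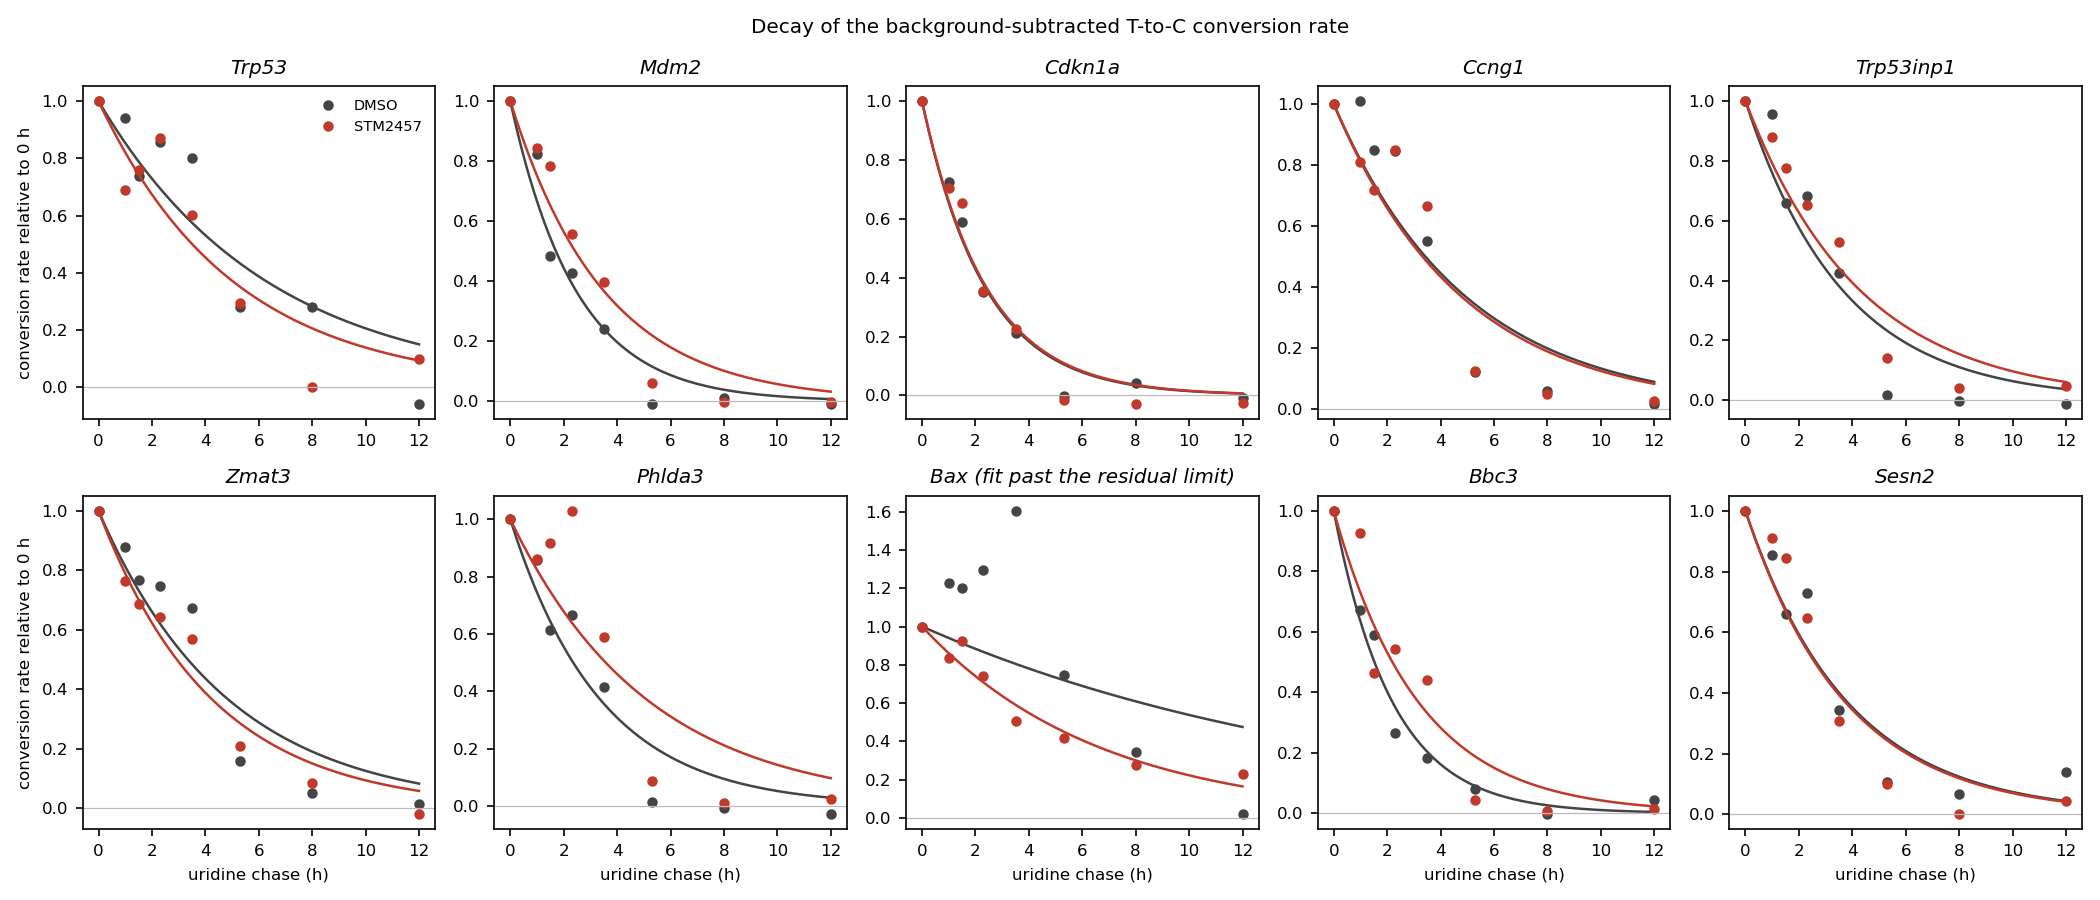
Conversion rate after subtraction of the unlabelled rate, relative to 0 h (vertical axis, no unit), against hours of chase for each gene, with points for the mean of each treatment and curves for the fitted exponential decay. The curves of Mdm2, Phlda3 and Bbc3 fall more slowly in STM2457, with half-lives of 2.43 h against 1.71 h for Mdm2, those of Cdkn1a lie on each other, and Bax exceeded the residual limit. Fitted in separate replicate series, the half-lives of Phlda3 and Bbc3 overlapped between treatments.

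**Figure D4:**
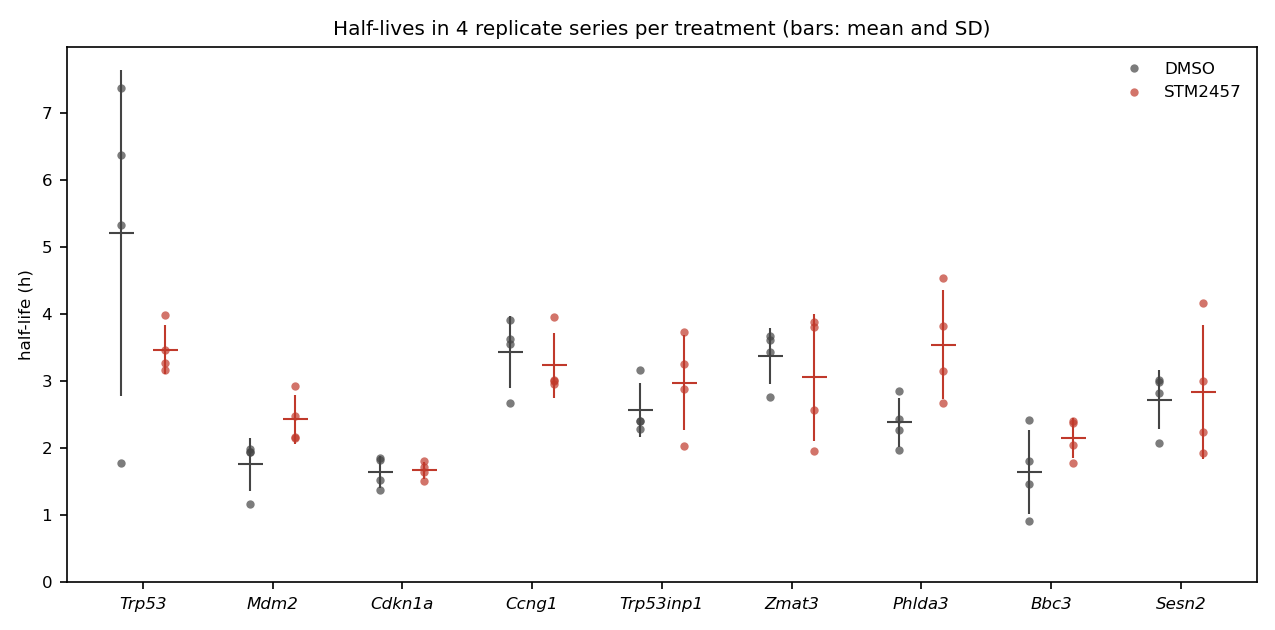
Half-lives in hours of 9 genes, fitted in each of 4 replicate series per treatment (points), with the mean and SD. Among these 9 genes only the series of Mdm2 do not overlap, at 1.17 to 1.99 h in DMSO and 2.15 to 2.93 h in STM2457. The share over all transcripts was not counted.

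As a measure that uses every library, the slope of the log2 conversion rate over 0 to 5.3 h was compared between treatments. Decay was slower in STM2457 for 3 of 10 members, where 4.84% of 10077 genes tested were called slower. The differences in slope, in log2 units per h, were 0.49 ± 0.09 for Mdm2 (SE, limma adjusted p = 1.9e-04), 0.47 ± 0.08 for Trp53inp1 (adjusted p = 4.0e-05) and 0.35 ± 0.10 for Phlda3 (adjusted p = 0.0155). The other 7 members had differences of -0.16 (Bax) to 0.06 (Ccng1), with adjusted p-values of 0.370 or more.

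None of these 3 calls was made without the libraries at 5.3 h. At 0 h the conversion rate of Mdm2 was 1.33%, 1.91%, 1.59% and 1.46% in DMSO and 1.32%, 1.27%, 1.54% and 1.31% in STM2457. At 5.3 h it was 0.0460%, 0.0314%, 0.0473% and 0.0696% in DMSO and 0.180%, 0.189%, 0.126% and 0.0561% in STM2457. The DMSO values had reached the unlabelled rate of 0.0339% to 0.0915%, so all 4 were set to the floor of 0.01%, and 3 of the 4 STM2457 values were above every DMSO value. For Trp53inp1 the rates at 5.3 h were 0.129%, 0.0608%, 0.159% and 0.160% in DMSO and 0.270%, 0.196%, 0.228% and 0.192% in STM2457. For Phlda3 they were 0.0384%, 0.0546%, 0.0884% and 0.131% in DMSO and 0.105%, 0.127%, 0.0810% and 0.269% in STM2457. Only those of Trp53inp1 did not overlap. With 0 to 3.5 h alone, limma called no member and no gene slower or faster (794 genes at an unadjusted p under 0.05), and the difference in slope of Mdm2 was 0.21 (adjusted p = 0.364). Over 0 to 12 h it was 0.01 (adjusted p = 0.933), and of these 3 members only Trp53inp1 was called there (0.24, adjusted p = 3.1e-06). The mean unlabelled rate subtracted for Trp53inp1 was unequal, at 0.104% in DMSO and 0.0278% in STM2457. At 12 h its mean rates before subtraction were 0.0872% in DMSO and 0.0957% in STM2457. After subtraction all 4 DMSO libraries at 12 h were at the floor, and the STM2457 mean was 0.0679%. The size of the differences in slope depends on the floor and the background. With a floor of 0.05% the difference in slope was 0.19 for Mdm2 (adjusted p = 0.0101), 0.33 for Trp53inp1 (adjusted p = 4.6e-06) and 0.16 for Phlda3 (adjusted p = 0.233). With no background subtraction it was 0.29 for Mdm2 (adjusted p = 6.2e-04), 0.17 for Trp53inp1 (adjusted p = 0.0339) and 0.21 for Phlda3 (adjusted p = 0.0607). The call of Phlda3 was thus lost under both, over 0 to 12 h, and without replicate 1 or replicate 2, with adjusted p-values of 0.115 and 0.174. Mdm2, with the slower slope, was at the same time the member with a called lower level in STM2457 at 12 h.

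The wider p53 pathway was described through lists of other genes. Of 29 other p53 targets 28 were tested, and over the chase 4 were higher and 11 lower in STM2457, where 13.9% of all genes were higher and 12.6% lower, with a median log2 difference of -0.17 beside -0.01 over all genes. Those with the largest differences were Gadd45a, a DNA damage sensor (-0.76 ± 0.13, edgeR adjusted p = 1.6e-06), Pmaip1, which encodes the BH3-only protein Noxa (-0.71 ± 0.13, adjusted p = 6.2e-06), Plk2, a polo-like kinase (-0.65 ± 0.06, adjusted p = 5.8e-16), and Eda2r, a receptor of the TNF receptor family (-0.47 ± 0.07, adjusted p = 1.4e-07). In the other direction went Steap3, a metalloreductase (0.51 ± 0.15, adjusted p = 0.00383), and Ppm1d, which encodes the p53 phosphatase Wip1 (0.45 ± 0.04, adjusted p = 5.5e-14). With labelling in DMSO, 4 of the 28 were higher and 0 lower, where 0.30% and 0.213% of all genes were, at a median of 0.38, and these were Perp, a desmosomal protein (1.03 ± 0.16, adjusted p = 2.5e-05), Plk2 (0.81 ± 0.16, adjusted p = 9.4e-04), Ddit4, an inhibitor of mTORC1 (0.67 ± 0.13, adjusted p = 7.2e-04) and the death receptor Tnfrsf10b (0.60 ± 0.12, adjusted p = 0.00185). In STM2457, labelling gave 5 higher and 0 lower, where 0.269% of all genes were higher, at a median of 0.30, with Plk2 (1.07 ± 0.16, adjusted p = 1.2e-05) and Perp (0.98 ± 0.16, adjusted p = 1.1e-04) ahead.

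Of 18 tested regulators and cofactors of p53, 3 were higher in STM2457 over the chase, namely Trp53rkb, a p53 kinase (1.32 ± 0.08, edgeR adjusted p = 8.9e-24), the deacetylase Sirt1 (0.50 ± 0.05, adjusted p = 1.7e-12) and the acetyltransferase Crebbp (0.45 ± 0.07, adjusted p = 8.3e-08). Lower were Mdm4, the partner of Mdm2 (-0.50 ± 0.06, adjusted p = 6.1e-11), and the ubiquitin ligase Rchy1 (-0.20 ± 0.05, adjusted p = 0.00173). These counts of 3 and 2 are close to what the shares over all genes, 13.9% and 12.6%, give for a list of this length. With labelling none of the 18 was called in either treatment. Of 11 BCL-2 family and caspase genes, 2 were higher and 2 lower in STM2457 over the chase, again close to what the shares over all genes give. The anti-apoptotic Bcl2l1 (0.79 ± 0.07, adjusted p = 5.2e-15) and Mcl1 (0.29 ± 0.03, adjusted p = 4.6e-11) were among those higher. Casp2 (-0.34 ± 0.08, adjusted p = 6.2e-04) was among those lower. With labelling 0 of these 11 were called in DMSO and 1 in STM2457, Mcl1 (0.44 ± 0.09, adjusted p = 0.00386). Of the p53 relatives Trp63 and Trp73, 1 had enough reads to be tested, and it was called in no comparison. Among the mESC markers 6 were higher and 1 lower in STM2457 over the chase, with Zfp42 at 0.69 and Tdgf1 at -0.44. The part of this in the members' differences was not tested.

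As a description over the 18 group means, which share libraries and depth, the profile of Mdm2 correlated with those of Trp53inp1 (r = 0.83), Bbc3 (r = 0.80), Sesn2 (r = 0.79) and Ccng1 (r = 0.66), and that of Trp53 with Cdkn1a (r = 0.77). Trp53 and Mdm2 were less alike (r = 0.27). Outside the panel, among 7942 genes of at least 10 CPM, the profiles most like Trp53 were those of Snrpn (r = 0.94), Eif6, Ruvbl2, Sf3a2 and Rbbp4 (r = 0.91). Those most like Mdm2 were 1700007K13Rik (r = 0.89), Plxna1, Dcaf4, Zfp365 and Susd6 (r = 0.83), and those most like Cdkn1a were Nup188 (r = 0.88), Pcdhga1, Coro1c, Ddx56 and Babam1 (r = 0.84).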

How the data were processed

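SLAM-seq libraries of male mESC were made with the QuantSeq 3′ FWD kit. The authors used SLAM-DUNK on GRCm38.p6, allowing up to 100 positions per read, hid variants seen in unlabelled cells, counted over 3′ UTR windows and summed the windows of a gene, with FastQC 0.11.8 named for read quality. Per gene and library, the deposited raw counts give reads, multimapping reads, covered T positions and conversions, without normalization. The deposited conversion rate is a fraction, conversions over covered T positions, and is printed in percent. The files hold no columns of other samples.

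Groups came from the labels and the hours of chase from the study's scheme. Reads were fitted with edgeR 4.0.16 in R 4.3.3 (TMM, filterByExpr, 1 quasi-likelihood fit of 71 libraries and 18 group means), with Benjamini-Hochberg adjustment over 12659 genes and calls at an adjusted p under 0.01. Half-lives followed the study's model of exponential decay (mean T coverage over 100, half-life of 0.67 to 18 h, residual standard error up to 0.3). limma 3.58.1 tested log2 half-lives of replicate series, and decay slopes with rates floored at 0.01%, with calls at an adjusted p under 0.05. Replicates differed by more than sampling noise (lowest chi-square over its degrees of freedom 2.82 in 105 pairs, 0 identical). The edgeR test, the exponential fit and a slope model without floor or background subtraction were tested on simulated data. The other steps were not. DESeq2 1.42.0, other size factors, filters, time points, floors and left-out libraries were tried.

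The members and lists were chosen with earlier results of these data known. Named outside the panel were, per list, the called genes with the largest differences (up to 6) over the chase or with labelling in DMSO, and the 5 genes with the most similar profile to Trp53, Mdm2 and Cdkn1a. The lists were 29 other p53 targets, 19 regulators and cofactors, 11 BCL-2 family and caspase genes, 2 p53 relatives, and markers of mESC, primitive endoderm, trophoblast, early germ layers and fibroblast feeders. The values of 1 listed gene are not reported here. Same-numbered libraries did not deviate together (mean r = 0.0097 over 35 pairs, range -0.077 to 0.27), so replicate numbers were not used as pairs.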

Additional observations from a re-analysis of the deposited data

Results flagged for a closer look

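Within groups of 4 samples, 1 value lay apart from the other 3, by the gap to its neighbour relative to the whole range (Dixon's criterion), in 8 of 98 groups of member values, where chance gives about 1 in 20. For Mdm2 these were the highest unlabelled DMSO library, at 208 CPM over a lowest of 152 CPM, and the lowest DMSO half-life series, at 1.17 h beside a highest of 1.99 h. For Ccng1 they were the highest DMSO library at 0 h, at 341 CPM over a lowest of 247 CPM, the highest STM2457 library at 12 h, at 184 CPM over a lowest of 139 CPM, and the highest STM2457 half-life series, at 3.96 h over a lowest of 2.96 h. For Bax it was the highest unlabelled STM2457 library, at 182 CPM over a lowest of 105 CPM. For Bbc3 it was the lowest unlabelled STM2457 library, at 4.92 CPM under a highest of 17.2 CPM, and for Trp53inp1 the highest DMSO half-life series, at 3.17 h over a lowest of 2.29 h.

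The Ccng1 library of 341 CPM at 0 h was 1 of the 12 libraries with fewer reads from GC-rich genes. The half-life difference of Mdm2 between treatments went from 0.49 to 0.21 on the log2 scale without series 2 of both treatments, which removes the DMSO series of 1.17 h together with the highest STM2457 series, at 2.93 h.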

How the results depend on the processing

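Of 1792 refitted member values, 1436 were called in neither fit and 93 of those changed sign. Among the rest, 1 called value changed sign: the decay slope difference of Bax, -0.16 over 0 to 5.3 h, was 0.18 log2 per h over 0 to 12 h (limma adjusted p = 0.0308). Members called moved as follows. Without s4U, 1 became 2 with the library's GC slope as a covariate. At 0 h, 0 became 2 with DESeq2, 2 with RLE size factors, 1 with no filter on low counts, 1 with only the libraries of the contrast, 3 with the GC slope and 3 without the 12 libraries low at GC-rich genes. At 12 h, 1 became 4, 2 and 3 with the GC slope, without the 12 libraries and with only the libraries of the contrast. With labelling in DMSO, 4 became 8 with the GC slope. For 12 h minus 0 h, 2 became 4 in DMSO, and 1 became 2 in STM2457, under each of these 3 settings, and the difference between treatments went from 0 to 1 with the GC slope and without the 12 libraries. The slope calls went from 3 to 0 over 0 to 3.5 h and to 2 over 0 to 12 h. The cause was not tested. The GC slope and the 12 libraries were chosen after seeing the data. None of the 12 was at 12 h, or in STM2457 at 0 h or without s4U. In comparisons of these groups alone, leaving out the 12 did not change the libraries compared.

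Leaving out libraries gave 0 to 1 members called without s4U and at 0 h, 1 at 12 h, 8 averaged, 3 to 4 and 2 to 3 with labelling in DMSO and STM2457, 1 to 2 and 0 to 2 for 12 h minus 0 h, 0 for both differences between treatments and for half-lives, and 2 to 3 for slopes. With the replicate number as a block, where same-numbered libraries share only the number, 2 members were called at 0 h and 2 for 12 h minus 0 h in STM2457, with no other count of members moved by over 1.5 times.

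Over all genes, calls without s4U went from 326 to 107 with only the libraries of the contrast. Those with labelling in DMSO went from 65 to 112 with DESeq2, 171 with the GC slope, 99 without the 12 libraries and 14 with only the libraries of the contrast. Slope calls went from 653 to 336 with no background subtraction, 353 with a floor of 0.05%, 358 without the 12 libraries and 0 over 0 to 3.5 h. Depth limits Bbc3, and the unlabelled rate limits late time points of short-lived transcripts.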

Other observations

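Among the p53 targets outside the panel, Ppm1d, which encodes the phosphatase Wip1, changed its order between treatments during the chase. It was higher in STM2457 without s4U (log2 difference 0.77 ± 0.12, SE, edgeR adjusted p = 9.5e-06) and at 0 h (0.71 ± 0.12, adjusted p = 4.6e-05), whereas at 12 h the difference was -0.37 ± 0.12 (adjusted p = 0.0361). In DMSO, Ppm1d rose from 0 to 12 h by 0.63 ± 0.12 (adjusted p = 4.6e-05), and in STM2457 the difference was -0.44 ± 0.12 (adjusted p = 0.0101). The difference between these courses was -1.07 ± 0.17 (adjusted p = 1.8e-05), and Ppm1d was the 1 gene of the 28 tested targets for which it was called. Ddit4, an inhibitor of mTORC1 that responds to p53 and to other stresses, rose from 0 to 12 h by 1.07 ± 0.12 in DMSO (adjusted p = 5.1e-10) and by 0.47 ± 0.12 in STM2457 (adjusted p = 0.00863), and at 12 h it was lower in STM2457 (-0.96 ± 0.12, adjusted p = 1.8e-08).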
